A study of Mus musculus with 10 samples.

Results

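The genes described here are 34 mouse genes of meninges, fibroblasts and extracellular matrix, measured in the adult mouse hippocampus after loss of DLK. DLK, encoded by Map3k12, is a kinase that activates JNK signalling in stressed neurons, and the arrays ask which transcripts differ when it is removed. The 34 genes comprise collagens, small leucine-rich proteoglycans, other matrix proteins, and transporters, enzymes and transcription factors that mark meningeal cells, with laminins left out. Members were found by the RefSeq accession of each array probe, and the brightest probe stood for each gene. Of the 34 genes, 32 had a probe among the 20144 gene symbols matched on the array. Col6a3 and Col12a1 had no probe matched here, and Col15a1 was too dim to test, which left 31 members among 23574 features tested.

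The samples came from 5 DLK conditional knockout (cKO) mice and 5 DLK wild-type (WT) mice, with 1 mouse per array. Both genotypes ate a tamoxifen diet for 3 weeks, which served to remove DLK in the cKO mice, so the WT mice were exposed to the drug as well. The labels name neither the recombinase nor the cells it acts in, nor which exons were removed, and give no sex or exact age. RNA of each hippocampus was labelled with Cy5 and hybridised against the Universal mouse reference, a commercial pool of mouse RNA labelled with Cy3. Unless stated otherwise a value is the log2 of sample over that pool, and every difference is cKO minus WT with n = 5 mice each.

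The brain is wrapped in meninges, layers of fibroblasts and barrier cells that make fibrillar collagens, proteoglycans and retinoic acid and carry transporters between blood, cerebrospinal fluid and brain. Fibroblasts also line the larger vessels that enter the tissue, and endothelial cells and pericytes lay down the type IV collagen of the vessel basement membrane. Hippocampal neurons and glia make little fibrillar collagen, and a dissected hippocampus can carry along strips of meninges and choroid plexus. In a bulk sample, fewer cells of a type and less RNA per cell cannot be told apart.

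RefSeq promoter sequences (mouse build GRCm38.p6) were at hand for 26 of the 34 members, in 32 windows of 250 bases before an annotated transcription start. Those of 3 members are shown, each a gene with an unadjusted p under 0.05 between the genotypes and with a motif that was searched for. Each is written 5′ to 3′ on the strand of the gene, and capitals mark CCAAT on either strand (read as ATTGG on the other) or, in Ptgds, the AP-1 motif TGANTCA. Slc13a4, which encodes a sulfate transporter, lies on the minus strand with this window at chr6:35308127-35308376. The window of Foxc1, a forkhead factor needed for the meninges to form, is at chr13:31806396-31806645 on the plus strand. That of Ptgds, the lipocalin-type prostaglandin D synthase, is at chr2:25469750-25469999 on the minus strand.
Slc13a4: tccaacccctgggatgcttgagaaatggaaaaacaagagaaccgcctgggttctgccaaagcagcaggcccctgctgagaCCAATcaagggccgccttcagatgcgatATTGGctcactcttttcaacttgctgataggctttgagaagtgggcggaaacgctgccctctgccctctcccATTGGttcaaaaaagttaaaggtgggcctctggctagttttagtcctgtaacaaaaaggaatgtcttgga
Foxc1: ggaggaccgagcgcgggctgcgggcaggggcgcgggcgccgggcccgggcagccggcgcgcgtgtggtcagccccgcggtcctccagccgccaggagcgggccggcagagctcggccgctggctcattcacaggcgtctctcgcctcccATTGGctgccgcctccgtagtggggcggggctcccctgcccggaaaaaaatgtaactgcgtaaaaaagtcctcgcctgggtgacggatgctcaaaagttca
Ptgds: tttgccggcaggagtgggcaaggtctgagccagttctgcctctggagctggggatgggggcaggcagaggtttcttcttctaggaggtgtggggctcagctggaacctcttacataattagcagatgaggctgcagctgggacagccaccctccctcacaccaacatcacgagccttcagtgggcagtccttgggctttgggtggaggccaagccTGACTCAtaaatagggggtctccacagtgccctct
The Slc13a4 window held 3 copies of CCAAT, counting both strands, and that of Foxc1 held 1. CCAAT, the box bound by the factor NF-Y, was found on either strand in 12 of the 32 member windows, against 33.8% of all 32851 promoter windows of that length. The AP-1 motif, read by Fos and Jun proteins, was found in 3 windows, those of Aldh1a1, Col6a1 and Ptgds, against 6.75% of all windows. The forkhead motif GTAAACA was in 1 member window, that of Col6a1 (3.17% of all windows), and TATAAA in 2, those of Col3a1 and Ogn (12.4% of all windows). No motif's letters contain those of another, and both strands were searched. Each match is a description of letters and not of a bound site. Col4a1 and Col4a2 lie head to head on mouse chromosome 8, on opposite strands, with annotated starts 21 bases apart and transcripts that overlap at their 5′ ends.

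Map3k12 was lower in all 5 cKO mice. Its log2 ratios were 0.64, 0.11, 0.64, 0.68 and 0.48 in cKO mice, against 2.11, 1.76, 1.74, 1.87 and 2.15 in WT mice. The gene fell by 1.41 (log2, SE 0.12, by limma with Benjamini-Hochberg adjustment over all features, adjusted p = 0.000975), and was the only feature of 23574 that passed the adjusted threshold of 0.05 in this fit. With plain background subtraction, with marked spots kept in the background fit, with the Cy5 channel alone or on slide 2 alone, 0 features passed in limma and so Map3k12 did not, with 582 to 1983 features at an unadjusted p under 0.05. The labels do not say whether its probe lies within the deleted part of the gene. Median Cy5 signal per array was 146 to 202 over a background of 29 to 31, and correlations between arrays over all features were 0.98 to 0.996. The arrays came from 3 slides. cKO mice 1, 3, 4 and 5 shared slide 1, slide 2 held cKO mouse 2 with WT mice 1, 2 and 4, and slide 3 held WT mice 3 and 5, so that any genotype difference within a slide rests on cKO mouse 2.

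Against the reference pool, 8 of the 31 measured members had mean ratios above 0 in both genotypes and 23 had mean ratios below 0 in both. Fibrillar collagens were far below the pool. Col1a1, a chain of type I collagen, was at 1.14% of the pool's level in cKO hippocampus and 0.967% in WT hippocampus. Col1a2, the partner chain, was at 5.01% in cKO and 5.05% in WT samples, and Col3a1, type III collagen, at 3.85% in cKO and 3.89% in WT samples. Fn1, fibronectin, was at 4.19% in cKO and 3.52% in WT samples. The 6 transporters and enzymes were all above the pool. Ptgds was at 9.29 times the pool in cKO and 8.33 times in WT hippocampus, and Slc13a4 at 8.31 times in cKO and 4.93 times in WT hippocampus. Serping1, the C1 inhibitor, was at 2.43 times in cKO and 2.37 times in WT samples. The Cy3 signals of the pool were dim for Slc13a4, at 69 to 123.5, and for Serping1, at 85 to 154.5. They were also dim for Slc22a6, at 56 to 111, and for Aldh1a2, at 97 to 126. The median Cy3 background per array was 33 to 37. The offset used in background correction pulls ratios of dim spots towards 0, so the ratios of Slc13a4, Serping1, Slc22a6 and Aldh1a2 depend on it. Lum, lumican, was at 1.07 times the pool in cKO and 1.04 times in WT samples, but in WT mouse 2 its spot lay at background, with a Cy5 signal of 29, against 390 to 625.5 in the other 9 mice. Each ratio compares a gene with itself in the pool, includes the dye effect, and does not rank genes by the amount of their mRNA.

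**Figure D1:**
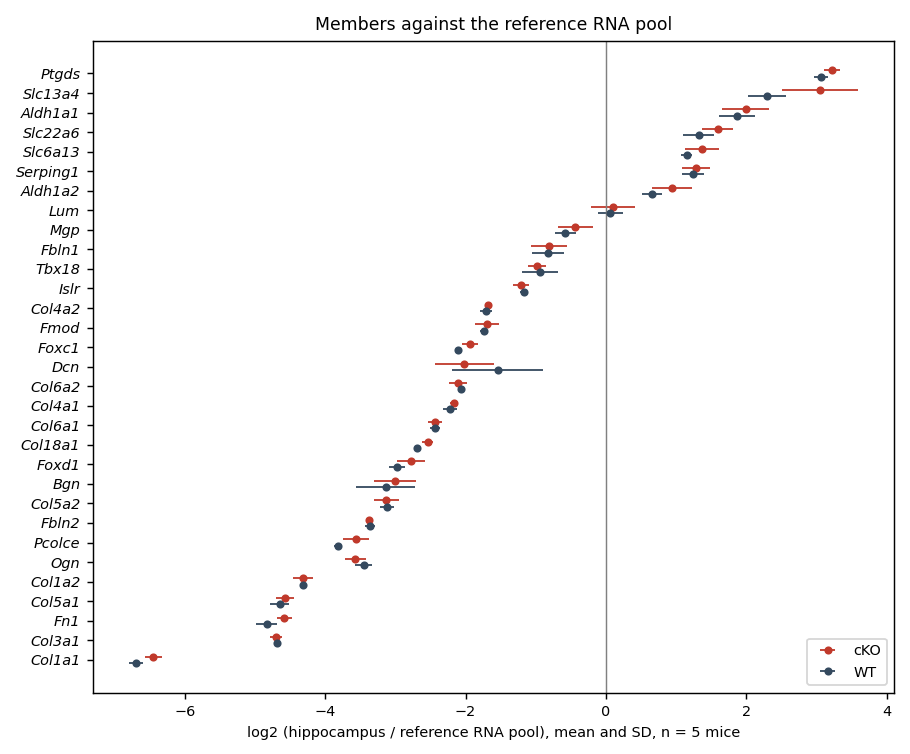
Log2 ratio of hippocampus over the reference RNA pool (horizontal axis) for the 31 measured members, ordered by their mean. Points are means and bars are SDs over 5 mice of each genotype, with cKO drawn above WT. Members run from Ptgds at 3.22 in cKO and 3.06 in WT down to Col1a1 at −6.45 in cKO and −6.69 in WT, and the widest bars belong to Dcn, Slc13a4 and Bgn.

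None of the 31 members passed the adjusted threshold (limma, Benjamini-Hochberg, adjusted p = 0.99994 for each), where 0.00424% of all features did. At an unadjusted p under 0.05, 9 members had higher values in cKO samples and 0 had lower values. These 9 are 29.0% of the members. Of all features, 3.86% reached that p, 2.83% with higher and 1.03% with lower values in cKO samples. The 9 were Col1a1, Col18a1, Fn1, Pcolce, Slc13a4, Slc22a6, Aldh1a2, Ptgds and Foxc1. Differences ranged from −0.48 for Dcn to 0.75 for Slc13a4, with a median of 0.05 over the members and 0.01 over all features. Values above 0 were found for 21 members, or 67.7%, and for 54.8% of all features. The members were picked with earlier results of these arrays known, and genes of 1 tissue layer share the mice, so the 9 are not 9 independent results.

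**Figure D2:**
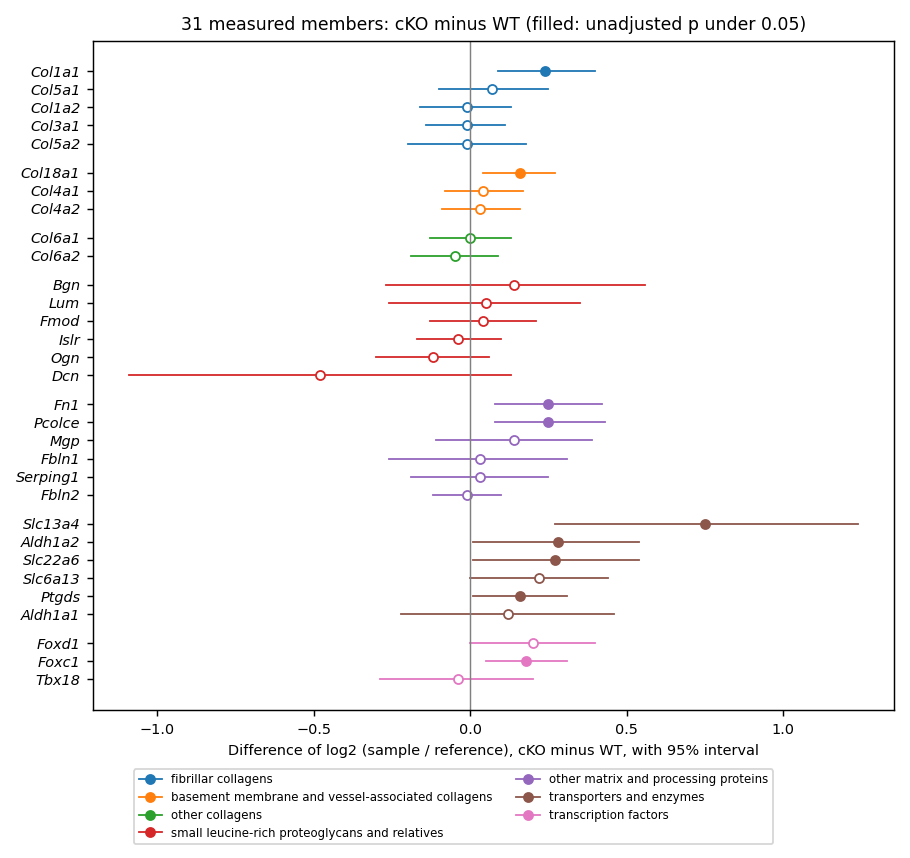
Difference of log2 ratios, cKO minus WT (horizontal axis), for the 31 measured members, grouped by role and coloured as in the key. Points are differences and bars their 95% intervals from limma with 5 mice per genotype. Filled points mark the 9 members with an unadjusted p under 0.05, all right of 0, and all 6 transporters and enzymes lie right of 0 while Dcn lies furthest left at −0.48.

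The largest difference of any member was in the transporters and enzymes. These 6 genes mark barrier cells of the meninges: Slc13a4 imports sulfate, Slc6a13 is the GABA transporter GAT2, Slc22a6 is the organic anion transporter OAT1, Aldh1a1 and Aldh1a2 make retinoic acid, and Ptgds makes prostaglandin D2. Some are not limited to meninges, since Ptgds is also made by oligodendrocytes and Slc13a4 and Ptgds by the choroid plexus. All 6 had higher means in cKO samples, with a median difference of 0.25, and 4 had an unadjusted p under 0.05. Of all features 54.8% had higher means and 2.83% were higher at that p.

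Slc13a4 had log2 ratios of 2.48, 3.18, 2.52, 3.38 and 3.72 in cKO mice, against 2.55, 2.25, 2.61, 2.12 and 1.99 in WT mice. cKO mice 2, 4 and 5 lay above every WT mouse, while cKO mice 1 and 3 lay within the WT range, so the genotypes overlapped. The difference was 0.75 (SE 0.22, 95% interval 0.27 to 1.24, limma unadjusted p = 0.00533, adjusted p = 0.99994), or 1.68 times the WT level.

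Aldh1a2, the main retinoic acid producing enzyme of embryonic meninges, followed the same mice. Its ratios were 0.69, 0.90, 0.69, 1.06 and 1.36 in cKO mice, against 0.81, 0.54, 0.60, 0.82 and 0.55 in WT mice. Again cKO mice 2, 4 and 5 were above all WT mice and cKO mice 1 and 3 were not, with a difference of 0.28 (SE 0.12, limma unadjusted p = 0.0406). Without cKO mouse 5 it was 0.17 (limma unadjusted p = 0.0969). Aldh1a1 had a wider spread, with 1.61 to 2.46 in cKO mice and 1.45 to 2.17 in WT mice, and a difference of 0.12 (SE 0.16).

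Slc22a6 had ratios of 1.57, 1.35, 1.43, 1.90 and 1.70 in cKO mice, against 1.62, 1.29, 1.14, 1.45 and 1.08 in WT mice. Here cKO mice 4 and 5 lay above all WT mice and the other 3 within their range, and the difference was 0.27 (SE 0.12, limma unadjusted p = 0.0424). On slide 2, where cKO mouse 2 stands against 3 WT mice, it was −0.11, the opposite sign. The pool signals of Slc22a6 were dim. Its difference was 0.26 (SE 0.26) with plain background subtraction and 0.00 (SE 0.29) with the scanner software's processed log ratio. Slc6a13 had ratios of 1.08 to 1.73 in cKO mice and 1.04 to 1.27 in WT mice, with 4 of 5 cKO mice above all WT mice and a difference of 0.22 (SE 0.10, limma unadjusted p = 0.0513).

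Ptgds, one of the most abundant proteins of cerebrospinal fluid, had the smallest difference of the 4. Its ratios were 3.13, 3.31, 3.10, 3.17 and 3.37 in cKO mice, against 3.19, 3.01, 3.07, 3.11 and 2.92 in WT mice. cKO mice 2 and 5 lay above all WT mice, the other 3 within their range, and the difference was 0.16 (SE 0.07, limma unadjusted p = 0.0437). Slc22a6, Aldh1a2 and Ptgds each lost an unadjusted p under 0.05 when any of cKO mice 4 and 5 or WT mice 2, 3 and 5 was left out, and also without cKO mouse 1 for Slc22a6 and cKO mouse 2 for Aldh1a2 and Ptgds. Averaged per mouse, the 6 genes stood at 1.79, 1.94, 1.87, 2.15 and 2.39 in cKO mice, against 1.92, 1.67, 1.75, 1.78 and 1.52 in WT mice, with cKO mice 2, 4 and 5 highest.

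**Figure D3:**
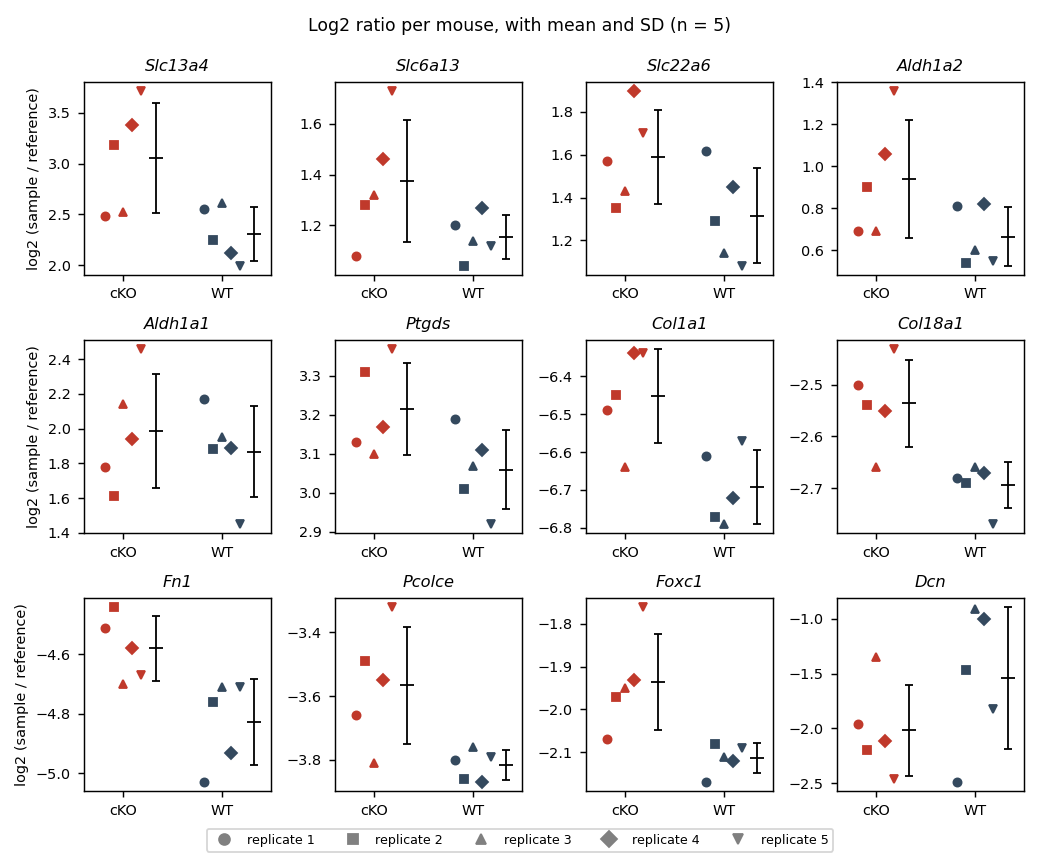
Log2 ratio of sample over reference (vertical axis of each panel, on its own scale) for 12 members in each mouse. Symbols give the replicate number, the bar beside each group its mean and SD (n = 5), with cKO left of WT. The cKO and WT points separate fully only for Fn1 and Foxc1, and cKO mouse 5 is the highest point for most of the transporters and enzymes.

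Fibrillar collagens, which form the tough fibres of the meninges and of vessel walls, had 2 members with higher and 3 with lower means in cKO samples. Their median difference was −0.01, and 1 member of 5 was higher at an unadjusted p under 0.05. The shares over all features were 54.8% with higher means and 2.83% higher at that p. Col1a1 had log2 ratios of −6.49, −6.45, −6.64, −6.34 and −6.34 in cKO mice, against −6.61, −6.77, −6.79, −6.72 and −6.57 in WT mice. Of the cKO mice 4 were above all WT mice and cKO mouse 3 lay within their range. The difference was 0.24 (SE 0.07, 95% interval 0.09 to 0.40, limma unadjusted p = 0.00519, adjusted p = 0.99994). Its Cy5 signal was 774 to 1108 in cKO and 642 to 997 in WT samples, well above background, while the Cy3 signal of the pool was 65505 to 80743 on cKO arrays and 68502 to 73935 on WT arrays.

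The mean of the partner chain of type I collagen lay close to that of WT mice. Col1a2 had ratios of −4.18, −4.35, −4.53, −4.22 and −4.32 in cKO mice, against −4.35, −4.35, −4.30, −4.24 and −4.30 in WT mice, a difference of −0.01 (SE 0.07, 95% interval −0.16 to 0.13). The 3 others were Col3a1 at −0.01 (SE 0.06), Col5a1 at 0.07 (SE 0.08) and Col5a2 at −0.01 (SE 0.09). The last 2 encode chains of type V collagen, which starts fibrils, and Col5a2 was well above background in 4 of 5 cKO and 4 of 5 WT samples. The 95% interval for Col3a1 was −0.14 to 0.11.

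Among collagens of basement membranes and vessels, Col18a1, the precursor of endostatin, differed most. Its ratios were −2.50, −2.54, −2.66, −2.55 and −2.43 in cKO mice, against −2.68, −2.69, −2.66, −2.67 and −2.77 in WT mice. Of the cKO mice 4 lay above all WT mice. The difference was 0.16 (SE 0.05, limma unadjusted p = 0.0142), and a second Col18a1 probe, not used for the gene, gave 0.22 (SE 0.07, limma unadjusted p = 0.00858). Col4a1 and Col4a2, the chains of the type IV collagen network, differed by 0.04 and 0.03 (SE 0.06 each), with 95% intervals of −0.08 to 0.17 and −0.09 to 0.16. The 3 probes of Col15a1, a related collagen, had Cy5 signals of 30.5 to 74 and were well above background on 0, 0 and 4 of the 10 arrays. Type VI collagen, a microfibril of connective tissue, had differences of 0.00 for Col6a1 (SE 0.06) and −0.05 for Col6a2 (SE 0.07). Col6a2 had ratios of −2.03, −2.07, −1.96, −2.29 and −2.19 in cKO mice, against −2.05, −2.05, −2.03, −2.03 and −2.11 in WT mice, with the cKO mice on both sides of the WT range.

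Small leucine-rich proteoglycans bind collagen fibrils and set their thickness. Of the 6 members of this class, 3 had higher and 3 lower means in cKO samples, the median difference was 0.00, and no member had an unadjusted p under 0.05. Over all features, 54.8% had higher means, with 2.83% higher and 1.03% lower at that p. Decorin (Dcn) stood out by its spread. Its ratios were −1.96, −2.20, −1.35, −2.11 and −2.46 in cKO mice, against −2.49, −1.47, −0.91, −1.0 and −1.82 in WT mice. The cKO mean was lower, but the lowest of the 10 mice was WT mouse 1, and the difference of −0.48 had a 95% interval of −1.09 to 0.13 (SE 0.28, limma unadjusted p = 0.115). The residual SD of Dcn between mice of a genotype, 0.55, was at percentile 99.8 of all features, although its Cy5 signals of 2056 to 7336 were bright.

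Biglycan (Bgn) had a residual SD of 0.37, at percentile 98.9. It had ratios of −2.71 to −3.37 in cKO mice and −2.47 to −3.45 in WT mice, with a difference of 0.14 (SE 0.19). The other 4 were Ogn, osteoglycin, at −0.12 (SE 0.08), Lum at 0.05 (SE 0.14) and 0.11 without WT mouse 2, Fmod, fibromodulin, at 0.04 (SE 0.08), and Islr, a leucine-rich repeat protein of fibroblasts, at −0.04 (SE 0.06). Dcn and Bgn did not vary together: WT mouse 3 was high for both, at −0.91 and −2.47, whereas WT mouse 4 was high for Dcn at −1.0 and low for Bgn at −3.37.

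Of the 6 other matrix and processing proteins, 5 had higher means in cKO samples, with a median difference of 0.09, and 2 were higher at an unadjusted p under 0.05, against 54.8% and 2.83% of all features. Fn1 encodes fibronectin, an adhesive protein onto which collagen fibres are assembled. It had ratios of −4.51, −4.44, −4.70, −4.58 and −4.67 in cKO mice, against −5.03, −4.76, −4.71, −4.93 and −4.71 in WT mice. All 5 cKO mice lay above all 5 WT mice, by as little as 0.01 between cKO mouse 3 and WT mice 3 and 5. The difference was 0.25 (SE 0.08, 95% interval 0.08 to 0.42, limma unadjusted p = 0.00748, adjusted p = 0.99994). Such a full separation with cKO higher was found for 2 members, Fn1 and Foxc1, or 6.45%, against 0.530% of all features, and with cKO lower for 0 members, against 0.246% of all features.

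Pcolce speeds the cleavage that turns procollagen into collagen. It had ratios of −3.66, −3.49, −3.81, −3.55 and −3.32 in cKO mice, against −3.80, −3.86, −3.76, −3.87 and −3.79 in WT mice. Of the cKO mice 4 lay above the tight WT range and cKO mouse 3 within it, with a difference of 0.25 (SE 0.08, limma unadjusted p = 0.00851). Mgp, an inhibitor of vessel calcification, was at 0.14 (SE 0.12), Fbln1 and Fbln2, the fibulins of elastic fibres and basement membranes, at 0.03 (SE 0.13) and −0.01 (SE 0.05), and Serping1 at 0.03 (SE 0.10). A second probe of Fbln1 was at −0.08 and a second probe of Serping1 at 0.14.

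Of the 3 transcription factors, Foxc1 separated the genotypes. Its ratios were −2.07, −1.97, −1.95, −1.93 and −1.76 in cKO mice, against −2.17, −2.08, −2.11, −2.12 and −2.09 in WT mice. All cKO mice lay above all WT mice, again with the nearest pair 0.01 apart, and the difference was 0.18 (SE 0.06, limma unadjusted p = 0.0122, adjusted p = 0.99994). Foxd1, a forkhead factor of stromal and meningeal lineages, had ratios of −3.01, −2.58, −2.91, −2.83 and −2.56 in cKO mice, against −2.96, −2.99, −3.17, −2.91 and −2.87 in WT mice. Its difference was 0.20 (SE 0.09, limma unadjusted p = 0.0528), and the groups overlapped through cKO mice 1 and 3. Tbx18, a factor of mural cells, was well above background in 3 cKO and 2 WT samples and differed by −0.04 (SE 0.11).

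The median residual SD between mice of a genotype was 0.134 over the members, against 0.120 over all features, and Dcn, Slc13a4, Bgn and Aldh1a1 were all above percentile 95 of all features. For 29 members, or 93.5%, the 95% interval of the main fit excluded a change of 1.5-fold in either direction, as for 98.5% of all features. That fit used the offset of 50, which pulls ratios of dim spots towards 0. With plain background subtraction the SE was 0.33 for Bgn, 0.33 for Tbx18 and 0.26 for Slc22a6, against 0.19, 0.11 and 0.12. For these genes the exclusion depends on the offset. Counts per mouse were made over the members only, so whether a mouse stood apart over all features was not tested. cKO mouse 5 had the highest value of the 10 mice for 15 of the 31 members and was above the median of the 10 for 26. cKO mouse 4 was above that median for 21 members and cKO mouse 3 for 13. Among WT mice, WT mouse 3 was above the median for 20 members, WT mouse 5 for 8 and WT mouse 2 for 6, and WT mouse 5 had the lowest value for 8 members.

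**Figure D4:**
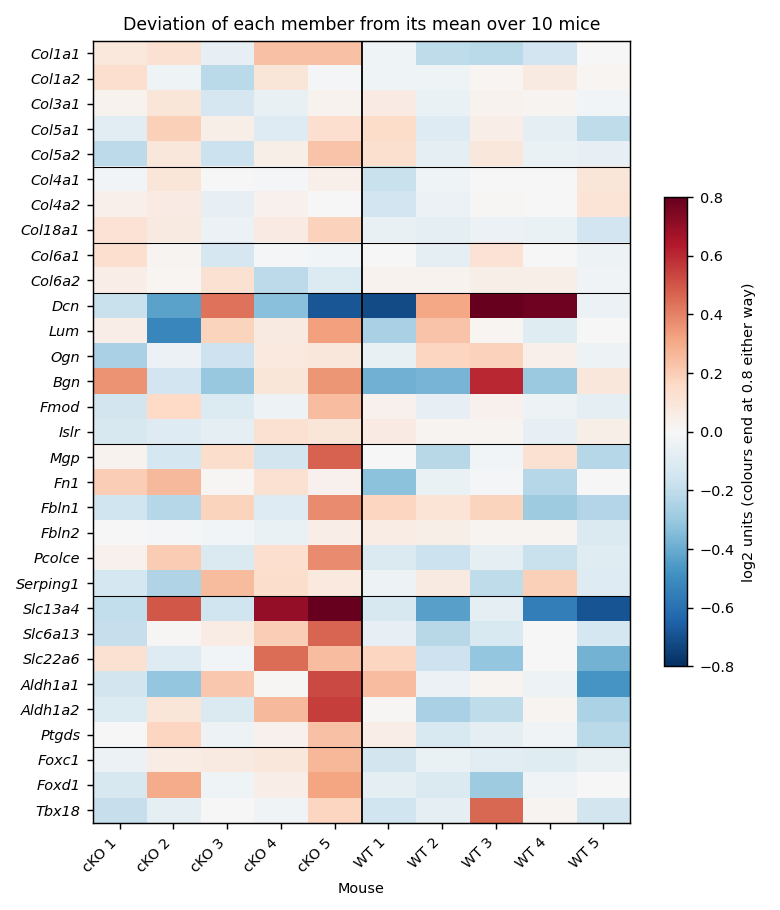
Deviation of each measured member (rows, grouped by role) from its own mean over the 10 mice (columns, cKO left of WT), in log2 units, with red above and blue below the mean and colours ending at 0.8 either way. The column of cKO mouse 5 is red for most members, Dcn is blue in 4 of 5 cKO mice and in WT mouse 1 and, faintly, WT mouse 5, and Slc13a4 is red in cKO mice 2, 4 and 5.

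The members were also tested for slide. In an F test of slide beside genotype 4 of the 31 members, Lum, Bgn, Serping1 and Slc22a6, had an unadjusted p under 0.05 (12.9%), against 4.70% of all features, and 0 features passed after adjustment (limma, Benjamini-Hochberg). Within slide 2, on cKO mouse 2 alone, the differences were 0.47 for Fn1, 0.35 for Pcolce, 0.87 for Slc13a4, 0.25 for Col1a1 and 0.16 for Foxc1, close to or above those over all mice. They were 0.21 for Ptgds, 0.14 for Col18a1 and 0.18 for Aldh1a2, against 0.16, 0.16 and 0.28 over all mice. Among members with the opposite sign on slide 2 were Lum at −0.48, Aldh1a1 at −0.36, Serping1 at −0.32 and Slc22a6 at −0.11. Since cKO mouse 2 is also in the main fit, these values are not independent of it. With slide as a fixed block, 3 members had higher values at an unadjusted p under 0.05, against 2.18% of all features. They were Fn1, Pcolce and Foxd1, of which Foxd1 was not among the 9. The 4 cKO mice of slide 1, cKO mouse 5 among them, have no WT mouse on their slide, so for them slide and genotype cannot be told apart.

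Markers of neighbouring tissues also had higher means in cKO samples, none past the adjusted threshold. Of all features 54.8% had higher means, and 2.83% were higher at an unadjusted p under 0.05. Choroid plexus epithelium, which hangs in the ventricle beside the hippocampus, had 15 of 17 listed markers measured, and all 15 were higher in cKO samples, with a median difference of 1.01, and 11 at an unadjusted p under 0.05. Their mean log2 ratio was 0.57, 1.46, 0.68, 1.0 and 2.0 in cKO mice, against 0.41, 0.62, 0.52, 0.04 and −0.13 in WT mice. cKO mice 2, 4 and 5, which had the highest Slc13a4 and Aldh1a2, also had the most choroid plexus signal. The 3 markers with the smallest p were the coagulation factor gene F5 at 1.1 (SE 0.26), the potassium channel gene Kcnj13 at 1.60 (SE 0.38) and the chloride channel gene Clic6 at 1.1 (SE 0.31), and none of the 15 passed the adjusted threshold. In cKO mice 1 and 3, whose choroid plexus values were near those of WT mice, Slc13a4 at 2.48 and 2.52 lay within the WT range. Col1a1 lay above all WT mice in cKO mouse 1, at −6.49, but within their range in cKO mouse 3, at −6.64. The same held for Pcolce, at −3.66 and −3.81, and for Col18a1, at −2.5 and −2.66. Foxc1 and Fn1 lay above all WT mice in both, but narrowly for Foxc1 in cKO mouse 1 and for Fn1 in cKO mouse 3. Foxc1 was at −2.07 in cKO mouse 1 and −1.95 in cKO mouse 3, against −2.08 in WT mouse 2. Fn1 was at −4.51 in cKO mouse 1 and −4.7 in cKO mouse 3, against −4.71 in WT mice 3 and 5. The part of choroid plexus in the members' values was not tested.

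**Figure D5:**
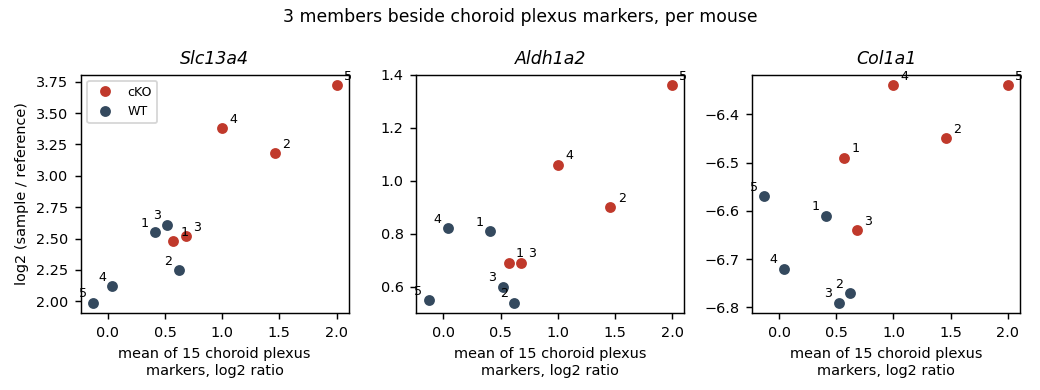
Log2 ratio of Slc13a4, Aldh1a2 and Col1a1 (vertical axes, each on its own scale) against the mean log2 ratio of 15 choroid plexus markers (horizontal axis) in each mouse, numbered by replicate, with cKO in red and WT in dark blue. For Slc13a4 and Aldh1a2 cKO mice 2, 4 and 5 stand apart at the upper right, at 1.0 to 2.0 on the horizontal axis, while for Col1a1 cKO mouse 1 also lies above all WT mice.

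Ependyma, the ciliated lining of the ventricle, had all 10 markers higher, 1 at an unadjusted p under 0.05, with a median of 0.37. It ranged from 1.33 to 2.21 in cKO mice and from 0.59 to 1.74 in WT mice, and was led by Mia at 0.69 (SE 0.27), the rest being Cfap126 at 0.41 (SE 0.20) and Hdc at 0.26 (SE 0.13) among the 3 named. Endothelial markers, from cells that make vessel basement membrane, had 10 of 12 higher, 5 of them at that p, with a median of 0.11, and their mean was 1.55 to 1.66 in cKO mice and 1.36 to 1.54 in WT mice, without overlap. The nearest mice were cKO mouse 2 at 1.55 and WT mouse 1 at 1.54. The mean of the TGF-beta signalling genes, described below, was also higher in all 5 cKO mice than in any WT mouse. Among endothelial markers Vwf was at 0.30 (SE 0.08), Emcn at 0.21 (SE 0.07) and Esam at 0.23 (SE 0.08). Pericyte and smooth muscle markers had 8 of 10 higher, 0 at that p, with a median of 0.07, ranging from 0.45 to 0.60 in cKO mice and 0.39 to 0.50 in WT mice, with Abcc9 at 0.23 (SE 0.12), Rgs5 at 0.14 (SE 0.08) and Vtn at 0.11 (SE 0.06). Oligodendrocyte markers had 9 of 11 higher, 7 of them at that p, with a median of 0.30, at 3.19 to 3.46 in cKO mice and 2.85 to 3.23 in WT mice, with Hapln2 at 0.42 (SE 0.10) and Mag at 0.51 (SE 0.13). The part of these cell types in the members' values was not tested.

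Markers of 4 further cell types had median differences of 0.06 to 0.13, with 1 neuronal and 1 blood gene higher at an unadjusted p under 0.05 and 0 of the astrocyte and microglia lists. Beside these counts, 54.8% of all features had higher means and 2.83% were higher at that p. Astrocyte markers had 7 of 9 higher (median 0.06), at 4.14 to 4.77 in cKO and 4.09 to 4.54 in WT mice, led by Gfap at 0.23 (SE 0.16), Slc4a4 at 0.27 (SE 0.22) and Slc1a2 at 0.14 (SE 0.13). Microglia and border macrophages had 8 of 8 higher (median 0.08), at 1.17 to 1.52 in cKO and 0.97 to 1.3 in WT mice. The macrophage genes Lyve1 at 0.14 (SE 0.07), Mrc1 at 0.24 (SE 0.14) and Pf4 at 0.09 (SE 0.07), which mark the border macrophages of meninges and vessels, had the smallest p. Principal neurons of the hippocampus had 8 of 11 higher (median 0.06), at 3.11 to 3.37 in cKO and 3.02 to 3.38 in WT mice, with Man1a at 0.21 (SE 0.09), Camk2a at 0.23 (SE 0.12) and Neurod6 at 0.20 (SE 0.12). Blood genes had 5 of 6 higher (median 0.13), at 2.57 to 3.02 in cKO and 2.37 to 2.93 in WT mice, with Hbb-bt at 0.16 (SE 0.07), Slc4a1 at −0.11 (SE 0.06) and Hba-a1 at 0.12 (SE 0.09).

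Other genes of the same pathways were read from lists of genes not among the members, and none of their genes passed the adjusted threshold. Over all features 54.8% had higher means, with 2.83% higher and 1.03% lower at an unadjusted p under 0.05 in limma. Other meningeal and retinoid genes had 22 of 28 higher, with a median of 0.10, and 4 higher and 0 lower at an unadjusted p under 0.05. Zic1, a factor of meninges and several brain regions, was at 0.64 (SE 0.14), Cldn11, a claudin of the arachnoid barrier and of myelin that is also in the oligodendrocyte list, at 0.56 (SE 0.15), and Igfbp2, a binding protein for insulin-like growth factors, at 0.45 (SE 0.16). Other matrix glycoproteins had 22 of 31 higher (median 0.03), 3 of them and 0 lower at that p, with Tgfbi at 0.41 (SE 0.12), the basement membrane protein Nid1 at 0.26 (SE 0.08) and the elastic fibre protein Fbln5 at 0.32 (SE 0.11).

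Collagens outside the members had 13 of 24 higher and 11 lower (median 0.02), 3 higher and 0 lower at that p, with Col9a3 at 0.25 (SE 0.08), Col8a2 at 0.78 (SE 0.30) and Col17a1 at 0.23 (SE 0.10). Enzymes that modify and cross-link collagen had 11 of 24 higher and 13 lower (median 0.00), 2 higher and 1 lower at that p. For these lists too, the shares over all features were 54.8% with higher means, and 2.83% higher and 1.03% lower at that p. Pcolce2, the close relative of Pcolce, was at 0.32 (SE 0.10), the procollagen proteinase Tll1 at 0.16 (SE 0.06) and the collagen glycosyltransferase Colgalt1 at −0.15 (SE 0.06). Matrix turnover genes had 10 of 15 higher (median 0.02), 1 higher and 0 lower at that p, with the proteoglycan-cleaving protease Adamts4 at 0.45 (SE 0.10), Mmp2 at 0.07 (SE 0.05) and Ctsk at 0.20 (SE 0.16). TGF-beta signalling genes, of the pathway that drives collagen synthesis in fibroblasts, had 13 of 17 higher (median 0.05), 2 higher and 0 lower at that p, with Bmp6 at 0.26 (SE 0.10) and the inhibitory factors Smad7 at 0.17 (SE 0.07) and Smad6 at 0.12 (SE 0.07).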

How the data were processed

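Hippocampal RNA of 10 mice was measured on 2-colour Agilent arrays. The deposited scanner files give the intensity of each spot, read by the authors with Feature Extraction 11.0.1.1 of Agilent per the file headers, and a processed log10 ratio of Cy5 over Cy3 from the same software. The authors' deposited table holds log2 ratios, with limma named in the submitters' processing notes. Its columns correlated at 0.99997 or more with the ratios computed here, with medians of 0.0120 to 0.0204, so scale and direction were log2 of sample over reference. It served as an alternative only.

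Median spot and background signals were corrected by normexp (offset 50) and loess in limma 3.58.1 (R 4.3.3), without spots marked non-uniform, control spots at weight 0. The offset pulls ratios of dim spots towards 0. That order of steps was taken from earlier work on these arrays, where it decided whether Map3k12 passed. Probes well above background in Cy5 on at least 5 of 10 arrays were kept, 28682 of 39429. RefSeq accessions (GRCm38.p6 gene table, names only, since the headers name mm9) named 26581 probes, 67.4%. The brightest probe stood for a gene. Genotype was tested with lmFit and eBayes, two-sided, with Benjamini-Hochberg adjustment over 23574 features. Probe sequences and proteins were not used here. The number of arrays limits the precision.

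Members and lists were chosen with earlier results of these data known. Given mouse by mouse are members with an unadjusted p under 0.05, members whose groups do not overlap, and the largest difference of each role group; from other lists, the 3 genes with the smallest p, of which 1 is not reported here. Same-numbered mice had deviations correlated between −0.56 and 0.16, and the main fit did not pair mice by replicate number. These correlations cannot show whether mice were paired by design. Alternatives changed background, signal, channel, filter, probes, weights, slide and left-out mice. P-values measure the spread between these mice.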

Additional observations from a re-analysis of the deposited data

Results flagged for a closer look

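Of 62 sets of 5 mice, 1 set per member and genotype, 2 had a mouse set apart from the rest of its group by more than Dixon's 95% critical value for 5 samples, which chance alone exceeds in about 1 of 20 groups. Both are WT mouse 5. Its Col18a1 ratio was −2.77, with the nearest WT mouse at −2.69, a gap of 0.737 of the range of the group. Its Fbln2 ratio was −3.48, with the nearest WT mouse at −3.34, a gap of 0.776 of the range.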

How the results depend on the processing

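Each result was recomputed under 25 alternatives, and no member passed the adjusted threshold in any of them (limma, lowest adjusted p 0.111, for Col1a1). Fn1 and Pcolce kept an unadjusted p under 0.05 in all 25, Slc13a4 in 24, Col1a1 in 23, Foxc1 in 22, Col18a1 in 21, Aldh1a2 and Slc22a6 in 14, and Ptgds in 11. Higher at that p were 9 members as reported, against 2.83% of all features, and 9 with array weights, against 12.5%. With slide as a fixed block 3 were higher, against 2.18% of all features. Of those 3, 2 were among the 9 as reported and the other was Foxd1. When 1 mouse was left out 6 to 10 were higher, against 2.23% to 3.61% of all features. Lower were 0 as reported, 2 with array weights (9.19% of all features, against 1.03% as reported) and 1 when slide was a fixed block (1.59%). When 1 mouse was left out 0 to 1 were lower, against 0.742% to 1.33% of all features. Slide 2 holds 1 cKO mouse, which its p-values assume to vary like the WT mice, so its counts of members at that p are not given. On slide 2 alone 18 members had differences above 0 and 13 below 0, against 21 and 10 as reported. The median over all features was 0.00 on slide 2 and 0.01 as reported. The replicate block, which treats same-numbered mice as pairs, had 7 members higher and 1 lower at an unadjusted p under 0.05. Over all features 1.93% were higher and 0.658% lower at that p. The 1 feature past the adjusted threshold of limma became 0 with plain subtraction (895 at an unadjusted p under 0.05), all spots in the background fit (860), the Cy5 channel alone (582) or slide 2 (1983), against 911 as reported. It became 2 when a gene's probes were averaged, and ranged from 1 to 2 with 1 mouse left out (2 without cKO mouse 4). The median member ratio, −2.02 in cKO and −2.06 in WT samples, was −2.57 and −2.46 with the scanner software's processed log ratio. In WT samples it was −2.15 with an offset of 16, −2.18 with plain subtraction and −1.98 with all spots. The cause of these shifts was not tested.

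Small differences changed sign. With slide as a fixed block and on slide 2 alone, where the value rests on cKO mouse 2, Aldh1a1 was at −0.36, Lum at −0.48, Serping1 at −0.32, Fbln1 at −0.23, Mgp and Slc22a6 at −0.11, Col3a1 and Col5a2 at 0.09 and Col6a1 at 0.04. With array weights Fbln1 was at −0.17, Aldh1a1 at −0.05, Fmod at −0.04, Col5a1 at −0.03, Lum at −0.01, Col6a1 at 0.01 and Col1a2 at 0.06. With all spots Fmod was at −0.06, Col4a1 at −0.04, Col5a1 at −0.02, Bgn at −0.01, and Col1a2 and Col6a1 at 0.01. With the Cy5 channel alone Col5a2 was at 0.05, Col6a1 at 0.04 and Col1a2 at 0.01. The mean of a gene's probes put Fbln1 at −0.03, an offset of 16 put Lum at −0.02, plain subtraction put Serping1 at −0.01, the processed log ratio put Serping1 at −0.02 and Slc22a6 just below 0.00, and the authors' deposited table put Col5a2 just above 0.00. With 1 mouse left out in turn the ranges crossed 0 for Col1a2 (−0.05 to 0.04), Col3a1 (−0.04 to 0.02), Col4a2 (0.00 to 0.06), Col5a2 (−0.07 to 0.04), Col6a1 (−0.04 to 0.03), Fbln1 (−0.07 to 0.09), Fbln2 (−0.04 to 0.00), Fmod (−0.01 to 0.09), Lum (−0.03 to 0.18), Serping1 (−0.02 to 0.10) and Tbx18 (−0.09 to 0.07). Dim spots limit Tbx18, Col5a2 and Col15a1, and Lum had 1 spot at background, in WT mouse 2. Dim pool signals limit Slc13a4, Slc22a6, Aldh1a2 and Serping1.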
